A study of Homo sapiens with 9 samples.

Results

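The genes described here encode the proteins of homologous recombination and of the Fanconi anemia pathway, together with the ATR checkpoint proteins that act with them. They were taken as a named list of 34 genes, and every probe set that the annotation of the array assigns to a single listed gene was used. This gave 69 probe sets for 30 genes, out of 54613 probe sets and 19775 genes on the array. The other 4 listed genes were not analysed here. Between 1 and 5 probe sets represented a gene, 12 genes had 1 and 18 had more. Where a gene is given 1 value, it is that of its brightest probe set, the one with the highest mean over all 9 arrays.

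Homologous recombination repairs a broken chromosome by copying the sister chromatid, so it works in S and G2 phase. The ends are first cut back to single strands, a recombinase filament is loaded onto these with the help of the BRCA1 complex and of paralogs of the recombinase, and the joined molecules are later taken apart. The Fanconi anemia pathway recognises crosslinks between DNA strands at stalled forks, marks the FANCI complex with ubiquitin and hands the lesion to recombination, while ATR and CHEK1 hold the cell cycle and protect the forks.

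RNA came from Rh30, an established human FP-RMS cell line that carries the PAX3-FOXO1 fusion, in 3 growth states with 3 Affymetrix U133 Plus 2.0 arrays each, which the paper calls biological triplicates. Xenografts were tumors of Rh30 cells in SCID/beige mice. According to the methods they grew in the gastrocnemius muscle from adherent cells in PBS, whereas the labels describe flank implants in Matrigel from adherent or sphere cultures. Spheres had been kept for 48 h in Neurobasal medium to which insulin was added at 50 µg/ml, bFGF at 80 ng/ml, EGF at 40 ng/ml and B27 at 1X, and adherent cells were monolayers. All groups are thus 1 cell line with 1 fusion genotype, and the spheres differ from the monolayers in medium as well as in form. Values are log2 RMA values, on which 1 unit is a 2-fold difference, and a change was called where limma gave an adjusted p under 0.05. Levels of different probe sets are not comparable, so each gene is compared only with itself.

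Array medians lay between 4.78 and 4.87, and arrays of 1 group correlated at r = 0.990 or above across probe sets. Of the muscle markers of this tumor, MYOD1, MYOG and DES were bright in all groups (mean log2 values of 8.49 or more), and MYF5 was dim (2.81 to 3.04). Their levels were not all constant. DES was called lower than in adherent cells in spheres (-0.38) and xenografts (-0.51), and MYOG in spheres alone (-0.91). MYOD1 and MYF5 were called in neither. The wider list of 12 identity genes had 5 lower and 0 higher in spheres, with all 12 changes negative. In xenografts 4 of the 12 were lower and 2 higher. The probes are human and would see mouse host RNA only by cross-hybridisation. Of 6 fibroblast genes, 5 were higher and 1 was lower in xenografts than in adherent cells, and the log2 of their summed level was 10.30 to 11.34 in xenografts, against 9.94 to 10.09 in adherent cells. In spheres, which were grown without host tissue, 0 of the 6 were higher and 2 were lower than in adherent cells. Their median log2 change against adherent cells was -0.18 in spheres and 0.73 in xenografts. The summed level in spheres was 10.35 to 10.62, within the range of the xenografts and above adherent cells. Of 6 adult muscle genes 3 were higher and 0 lower in xenografts, with sums of 7.59 to 7.90 in xenografts, 7.72 to 7.85 in spheres and 7.33 to 7.39 in adherent cells, and the fast myosin gene MYH4 was 5.28-fold higher in xenografts than in adherent cells (adjusted p = 1.58e-06). In spheres 1 of the 6, CKM, was higher than in adherent cells (log2 change 0.88, adjusted p = 0.000175) and 0 were lower. Of 5 endothelial genes 1, the VEGF receptor gene KDR, was higher in xenografts (1.51-fold, adjusted p = 0.00457), with sums of 6.88 to 7.36 in xenografts and 6.84 to 7.0 in adherent cells. Spheres also had 1 of the 5 called higher than adherent cells and 0 lower, with log2 changes from -0.47 to 0.73. For 5 leukocyte genes 0 were called, with sums of 6.08 to 6.33 in xenografts and 6.06 to 6.13 in adherent cells. Of 2 blood genes 1, HBB, was higher in xenografts (log2 change 0.29, adjusted p = 0.0493), as was 1 of 4 adipocyte genes. Of the leukocyte, blood and adipocyte genes 0 were called in spheres against adherent cells. These counts for host cell types stand beside 12.6% of all genes higher and 14.3% lower in xenografts than in adherent cells. For spheres the shares over all genes were 13.5% higher and 16.3% lower. RNA quality was read from ACTB as the log2 value of its 3′ control probe set minus that of its 5′ one, which was 3.15 to 3.31 in spheres, against 2.07 to 2.67 in adherent cells (two-sided exact permutation p = 0.1, the lowest possible with 3 arrays against 3). In xenografts it was 2.30 to 2.75, overlapping the adherent arrays (exact permutation p = 0.8). The same difference for GAPDH overlapped between the groups, at 0.59 to 0.67 in spheres and 0.42 to 0.68 in adherent cells (exact permutation p = 0.5). For xenografts the GAPDH difference was 0.41 to 0.64 (exact permutation p = 0.9 against adherent cells). The part of stroma, muscle or other host tissue or of RNA quality in the values below was not tested. The RNA is from whole cultures and tumors, so fewer cells in a cell cycle phase and less RNA per cell cannot be told apart, and 3 arrays per group limit the precision.

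The sequences at the start sites of 6 members are shown as examples of what the promoters of these genes hold. All promoters were searched for 3 forms of an E2F site (TTTCCCGC, TTTGGCGC and TTTCGCGC), the CHR element TTTGAA, the CCAAT box (CCAAT) and the GC box (GGGCGG), all on both strands. RefSeq windows on GRCh38.p14 from 250 bases before to 50 bases after the start were found for 27 of the 30 genes. E2F and the DREAM complex are known to act through E2F sites and CHR elements on genes of S and G2/M phase. In the windows printed here, read 5′ to 3′ on the strand of the gene, capitals mark E2F sites, CHR elements and CCAAT boxes. GC boxes, which every printed window holds, are not marked. The first 5 belong to genes that were lower in spheres and the last to RAD50, which was not lower at its brightest probe set. These examples do not follow the size of the change. RMI1, XRCC3, MSH6 and BARD1 fell by more than TOPBP1 and are not printed, and of these MSH6 alone held an E2F site. RAD50 had the highest change in spheres of the 30 members (0.39) and was called higher in xenografts (0.59). Of the members not called, XRCC2 held an E2F site, and MRE11, FANCF and BRCA1 held CCAAT boxes. BARD1, FANCG and FANCL, all called lower in spheres, held GC boxes and none of the other motifs.
CLSPN, chr1:35769929-35770228, minus strand, with an E2F site that begins 5 bases before the start and runs across it, overlapping a GC box. It also holds 3 CCAAT boxes, 1 of which overlaps a GC box.
CLSPN: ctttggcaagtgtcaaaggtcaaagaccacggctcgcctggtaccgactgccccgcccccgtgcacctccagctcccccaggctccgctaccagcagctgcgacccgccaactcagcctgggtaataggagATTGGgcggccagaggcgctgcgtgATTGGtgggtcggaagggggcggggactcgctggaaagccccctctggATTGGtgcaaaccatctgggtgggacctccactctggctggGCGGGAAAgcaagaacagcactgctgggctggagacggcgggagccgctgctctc
TOPBP1, chr3:133661892-133662191, minus strand, with an E2F site that begins 7 bases before the start and reaches it.
TOPBP1: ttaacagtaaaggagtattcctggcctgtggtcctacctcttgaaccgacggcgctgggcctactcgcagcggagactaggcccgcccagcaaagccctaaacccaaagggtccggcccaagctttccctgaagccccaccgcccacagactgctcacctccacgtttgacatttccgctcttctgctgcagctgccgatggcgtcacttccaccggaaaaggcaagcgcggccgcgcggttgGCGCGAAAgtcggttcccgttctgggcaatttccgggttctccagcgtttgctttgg
EXO1, chr1:241847954-241848253, plus strand, with an E2F site beginning at base 5 after the start. A second EXO1 window held none of the motifs.
EXO1: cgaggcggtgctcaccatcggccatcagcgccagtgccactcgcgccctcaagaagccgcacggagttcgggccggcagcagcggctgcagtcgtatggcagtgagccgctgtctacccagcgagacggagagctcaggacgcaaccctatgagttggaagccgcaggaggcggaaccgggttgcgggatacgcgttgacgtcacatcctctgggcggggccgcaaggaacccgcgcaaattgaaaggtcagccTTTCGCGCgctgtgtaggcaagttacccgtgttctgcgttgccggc
BRIP1, chr17:61863479-61863778, minus strand, with 3 CCAAT boxes and a CHR element at its distal end.
BRIP1: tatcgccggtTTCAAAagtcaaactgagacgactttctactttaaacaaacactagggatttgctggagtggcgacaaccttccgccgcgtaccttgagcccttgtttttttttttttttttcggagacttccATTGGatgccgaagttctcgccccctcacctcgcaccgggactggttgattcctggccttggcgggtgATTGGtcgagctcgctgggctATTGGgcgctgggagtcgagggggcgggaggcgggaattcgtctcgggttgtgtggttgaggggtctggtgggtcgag
BLM, chr15:90717096-90717395, plus strand, with 3 CCAAT boxes.
BLM: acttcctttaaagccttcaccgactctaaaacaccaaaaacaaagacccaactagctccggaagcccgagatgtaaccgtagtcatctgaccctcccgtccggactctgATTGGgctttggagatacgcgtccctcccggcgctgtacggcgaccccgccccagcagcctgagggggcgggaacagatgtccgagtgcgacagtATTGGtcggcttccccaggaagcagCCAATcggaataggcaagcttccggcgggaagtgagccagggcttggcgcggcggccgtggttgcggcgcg
RAD50, chr5:132556727-132557026, plus strand, with 1 GC box, which is not in capitals, and no other motif of the search.
RAD50: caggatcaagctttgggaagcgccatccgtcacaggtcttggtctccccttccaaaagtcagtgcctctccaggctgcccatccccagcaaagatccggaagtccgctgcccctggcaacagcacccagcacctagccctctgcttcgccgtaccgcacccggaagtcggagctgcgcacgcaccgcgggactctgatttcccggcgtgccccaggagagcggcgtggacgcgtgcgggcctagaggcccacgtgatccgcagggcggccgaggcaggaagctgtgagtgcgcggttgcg

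An exact E2F site stood in a window of 6 of the 27 genes (22.2%), which were CLSPN, EXO1, MSH6, TOPBP1, FANCC and XRCC2, against 3.3% of all 27305 genes with a window. CHR elements were found for 2 members, BRIP1 and FANCC (7.41%, against 18.2% of all genes). CCAAT boxes occurred for 13 members (48.1%, against 39.7%) and GC boxes for 22 (81.5%, against 48.3%). Split by the result in spheres, an E2F site was present for 5 of 16 members that were lower and 1 of 11 that were not called, and a CCAAT box for 10 of 16 and 3 of 11. These matches are descriptions of letters in a short window. BLM and BRIP1, with falls of over 2-fold in spheres, had no exact E2F site there, and XRCC2, which was not called in spheres, had one.

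**Figure D1:**
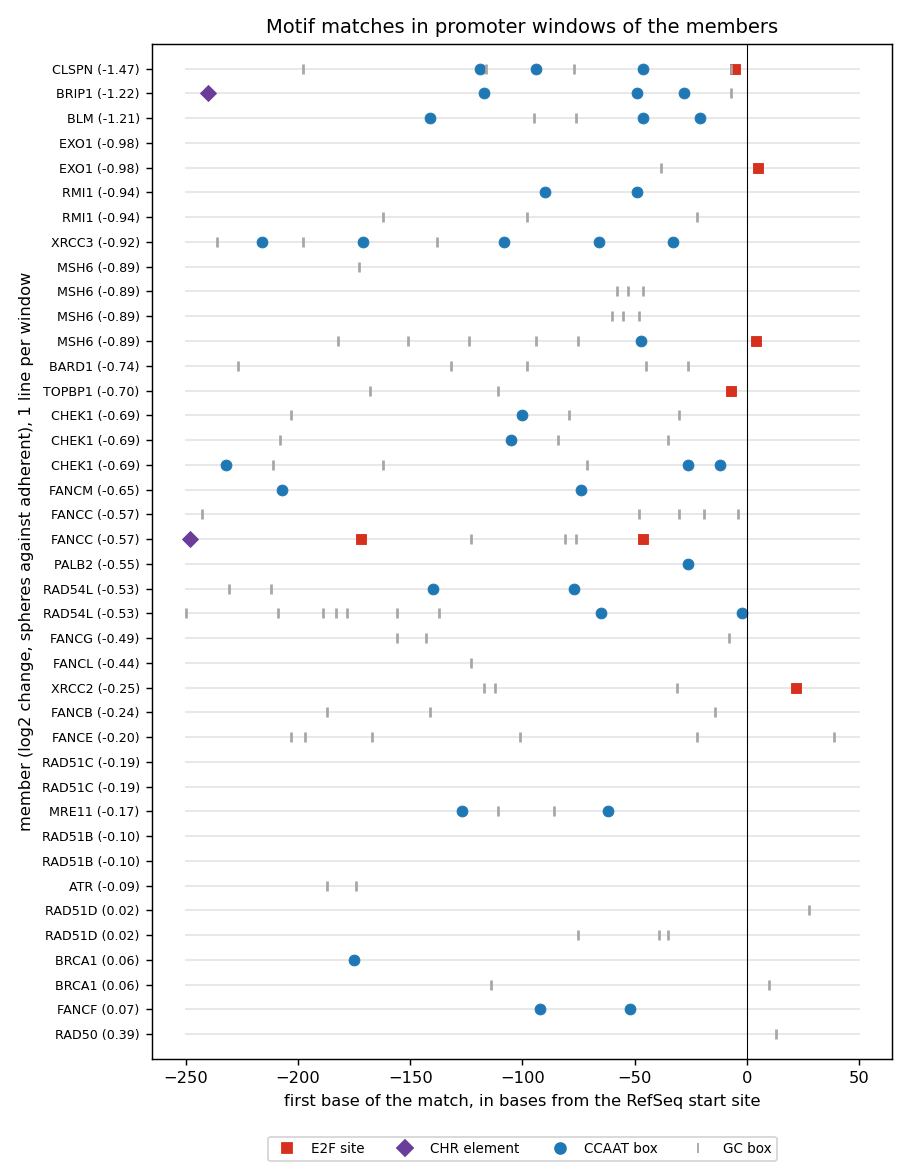
Motif matches in the promoter windows of 27 members, by distance in bases from the RefSeq start site (x axis), with 1 line per window and genes ordered by their log2 change in spheres against adherent cells. E2F sites begin between positions -7 and 22 for CLSPN, EXO1, MSH6, TOPBP1 and XRCC2, and at -172 and -46 for FANCC.

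In spheres, most of these genes had less RNA than in adherent cells. Of the 30, 18 fell and 0 rose, against 16.3% of all genes lower and 13.5% higher. At an unadjusted p under 0.05 limma gave 20 lower and 1 higher, and the methods' t-test 21 lower and 1 higher, or 15 lower and 0 higher after adjustment. The median log2 change was -0.54, against -0.04 over all genes. Of the 30 changes 25 were negative, against 11269 of 19775 over all genes. The 4 members CLSPN, FANCI, BRIP1 and BLM fell at least 2-fold, which 2.75% of all genes did. Over all 69 probe sets 33 were lower and 2 higher, against 12.6% and 13.3% of all probe sets. On single arrays, 25, 27 and 25 of the 30 lay below their adherent mean in spheres, with median differences of -0.44, -0.63 and -0.47. On the adherent arrays themselves 22, 10 and 14 did, with median differences of -0.04, 0.04 and 0.01. On the xenograft arrays 20, 23 and 19 did, with -0.16, -0.18 and -0.17.

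In xenografts fewer of these genes differed from adherent cells. Of the 30, 8 fell (CLSPN, FANCG, TOPBP1, BLM, BARD1, RAD54B, XRCC2 and FANCB) and 2 rose (RAD50 and RAD51C), against 14.3% of all genes lower and 12.6% higher. The median was -0.18, against 0.08 over all genes, and over all 69 probe sets 17 were lower and 4 higher, against 13.2% and 9.78%. With quantile normalization of the arrays the split was 4 higher and 3 lower. Both were near the shares over all genes, of which 3015 of 19775 were higher and 2111 lower. Centring the arrays on their medians gave 1 higher and 11 lower, against 1836 higher and 3252 lower of all 19775 genes. The count of falls also turned on single adherent arrays, being 5, 2 and 4 without adherent replicates 1, 2 and 3. Of all 19775 genes, 2311, 2060 and 2135 fell in these fits. Only RAD50 rose without adherent replicate 1 or 2, sphere replicate 2 or 3, or xenograft replicate 2 or 3. The fall of CLSPN held under all 20 alternatives, and the changes of FANCG and RAD50 under 19.

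Set directly against spheres, xenografts had more RNA of 19 members and less of 0, against 25.7% of all genes higher and 18.3% lower, with a median of 0.39 against 0.13 over all genes. The unadjusted limma counts were also 19 and 0, with no count over all genes taken. The methods' t-test after adjustment gave 7 and 0, against 2380 higher and 2263 lower of all 19775 genes. FANCI alone was at least 2-fold higher, as were 2.7% of all genes. Over the 69 probe sets 34 were higher and 7 lower, against 20.6% and 18.5% of all probe sets. The comparisons share their arrays in pairs, so a low value in spheres enters the comparisons with both of the other states.

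**Figure D2:**
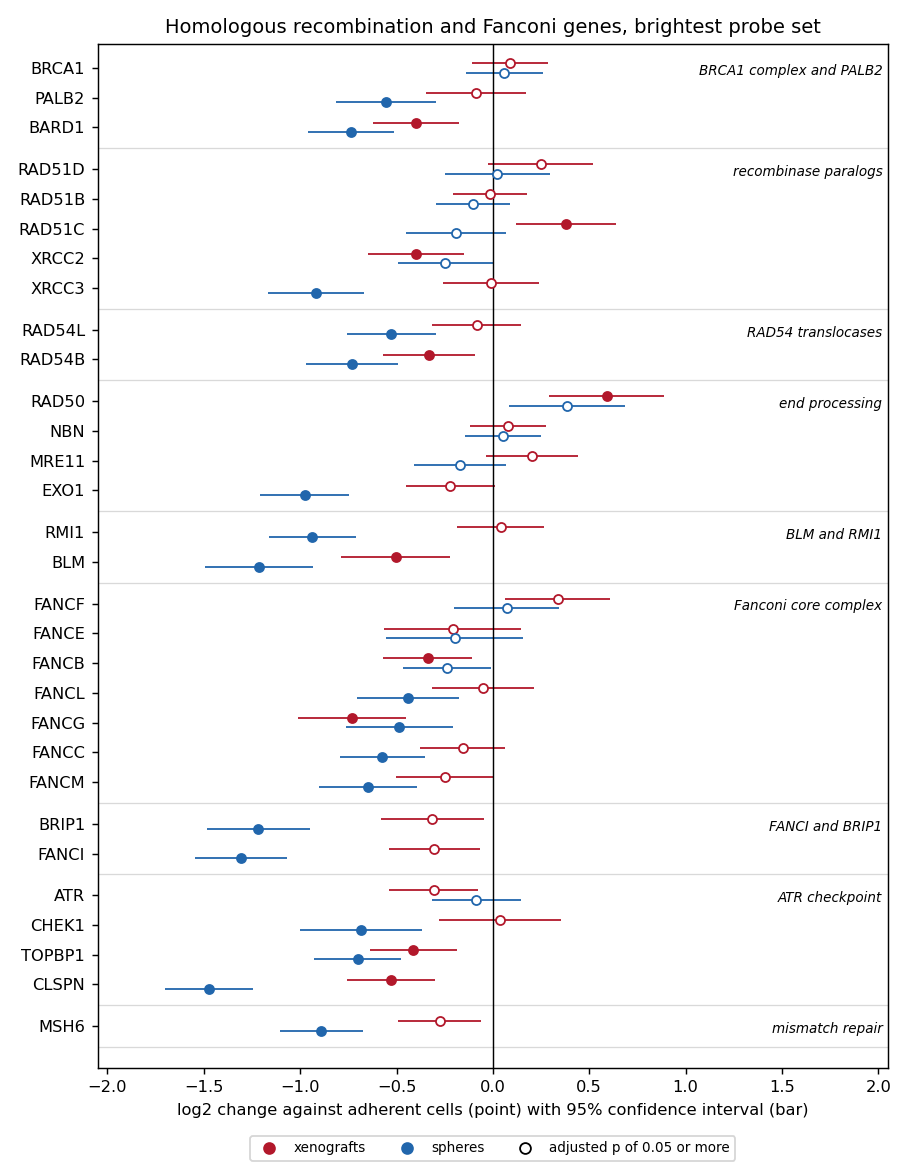
Log2 change of each of the 30 members against adherent cells (x axis) in xenografts (red) and spheres (blue), with 95% confidence intervals from limma, grouped by role. Filled points are past an adjusted p of 0.05. In spheres 18 members were lower, and in xenografts 8 were lower and 2, RAD51C and RAD50, were higher.

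The ATR checkpoint genes held the largest fall. CLSPN encodes claspin, the adaptor through which ATR phosphorylates CHEK1 at stalled forks. It read 7.22, 7.38 and 7.26 in xenografts, 6.20, 6.30 and 6.51 in spheres and 7.78, 7.91 and 7.75 in adherent cells. No array of one state overlapped those of another, with spheres lowest and adherent cells highest. CLSPN was at 0.360 times the adherent level in spheres (log2 change -1.47, SE 0.10, adjusted p = 1.57e-06), at 0.694 times in xenografts (-0.53, adjusted p = 0.00368), and 1.93-fold higher in xenografts than in spheres. All 4 of its probe sets fell in spheres, by 0.72 to 1.47 on the log2 scale. All but the brightest were dim, with mean values in spheres of 3.84 to 4.06. In xenografts 3 of the 4 fell, and the dim 219621_at did not (-0.05, adjusted p = 0.84).

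TOPBP1, the scaffold that activates ATR, read 9.66, 9.70 and 9.37 in xenografts, 9.34, 9.26 and 9.26 in spheres and 9.98, 10.03 and 9.95 in adherent cells. The adherent arrays stood above all others, and the lowest xenograft array was close to the highest sphere array. TOPBP1 fell by 0.70 in spheres (adjusted p = 0.000315) and by 0.41 in xenografts (adjusted p = 0.0136), the second call being lost without adherent replicate 2 (adjusted p = 0.0558). ATR itself did not pass at its brightest probe set, with changes of -0.09 in spheres (95% interval -0.32 to 0.14) and -0.31 in xenografts (adjusted p = 0.0549). A second ATR probe set, 209902_at, was lower in xenografts (-0.65, adjusted p = 0.00174).

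CHEK1, the kinase downstream of ATR, gave opposite answers at different probe sets. At the brightest, 205394_at, it read 8.10, 7.79 and 7.65 in xenografts, 6.91, 7.28 and 7.18 in spheres and 7.65, 8.02 and 7.75 in adherent cells. Spheres were lowest without overlap, while xenograft and adherent arrays overlapped. This and 2 further probe sets fell in spheres by 0.69 to 0.79 (adjusted p = 0.00117 to 0.00372). The dimmest probe set, 229423_at, read 5.94 to 6.25 in xenografts, 6.70, 6.55 and 6.62 in spheres and 5.35, 4.71 and 5.15 in adherent cells. There the order was turned round, with spheres highest. It rose 2.93-fold in spheres (log2 change 1.55, SE 0.15, adjusted p = 1.44e-05) and by 0.99 in xenografts (adjusted p = 0.000674).

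In the Fanconi pathway the largest log2 falls among the measured members were those of FANCI, which is ubiquitinated, and BRIP1. FANCI read 10.17, 10.44 and 10.32 in xenografts, 9.42, 9.13 and 9.36 in spheres and 10.57, 10.68 and 10.59 in adherent cells. The sphere arrays lay about 1 unit under the others, and the xenograft arrays just under the adherent ones. FANCI was at 0.404 times the adherent level in spheres (log2 change -1.31, SE 0.11, adjusted p = 4.72e-06) and was 2.01-fold higher in xenografts than in spheres (adjusted p = 2.55e-05). Against adherent cells its change in xenografts was -0.30 (adjusted p = 0.0646), which passed without xenograft replicate 2 (-0.37, adjusted p = 0.046). A second probe set, 213008_at, was lower in xenografts (-0.46, adjusted p = 0.0109), and all 3 probe sets of FANCI fell in spheres.

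BRIP1, a helicase that binds BRCA1 and is mutated in Fanconi anemia, read 8.74, 8.67 and 8.36 in xenografts, 7.59, 7.62 and 7.84 in spheres and 8.85, 9.04 and 8.81 in adherent cells. Again the sphere arrays were lowest and did not overlap the others. BRIP1 was at 0.430 times the adherent level in spheres (log2 change -1.22, SE 0.12, adjusted p = 1.98e-05). In xenografts the change was -0.31 at this probe set (adjusted p = 0.0865) and -0.90 at the second, 221703_at (adjusted p = 0.00134), which also fell in spheres (-0.84).

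The Fanconi core complex is the ubiquitin ligase that acts on FANCI and its partner. Of 7 measured subunits 4 fell in spheres and 0 rose, with a median of -0.44, against 16.3% of all genes lower and 13.5% higher. These were FANCM, the translocase that anchors the complex (-0.65), FANCC (-0.57), FANCG (-0.49) and FANCL, the catalytic subunit (-0.44). The call for FANCL was lost without adherent replicate 1 or 2 or sphere replicate 1 or 2. FANCB, FANCE and FANCF were not called in spheres (-0.24, -0.20 and 0.07). In xenografts FANCB fell by 0.34 (adjusted p = 0.0379), a call that held in 3 of the 9 fits with 1 array left out.

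FANCG was the one core subunit whose fall in xenografts held when any single array was left out. It read 8.25, 8.25 and 8.62 in xenografts, 8.74, 8.41 and 8.71 in spheres and 9.07, 9.06 and 9.19 in adherent cells. Xenografts and spheres overlapped, and both lay below the adherent arrays. In xenografts FANCG fell by 0.73 (SE 0.13, adjusted p = 0.00169) and in spheres by 0.49 (adjusted p = 0.0135), the sphere call being lost without adherent replicate 3 or sphere replicate 2. The difference of xenografts from spheres was -0.24 (95% interval -0.52 to 0.03, adjusted p = 0.145).

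FANCC differed between its probe sets. At 205189_s_at it read 8.04, 7.80 and 7.85 in xenografts, 7.42 to 7.59 in spheres and 8.0 to 8.15 in adherent cells, and spheres were lowest. At the dim 1559513_a_at it read 4.21, 4.28 and 4.21 in xenografts, 4.79, 4.55 and 4.64 in spheres and 4.48, 4.43 and 4.57 in adherent cells, and spheres overlapped the adherent arrays. The difference of xenografts from spheres was therefore 0.42 (adjusted p = 0.00668) by the first and -0.43 (adjusted p = 0.00398) by the second.

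Taking apart joined DNA molecules was represented by BLM, the helicase mutated in Bloom syndrome, and its partner RMI1. BLM read 8.47, 8.71 and 8.79 in xenografts, 8.20, 7.74 and 7.90 in spheres and 9.08, 9.16 and 9.23 in adherent cells. The states did not overlap, and xenografts took the middle place. BLM was at 0.431 times the adherent level in spheres (log2 change -1.21, SE 0.13, adjusted p = 2.97e-05) and at 0.705 times in xenografts (adjusted p = 0.0155). The xenograft call was lost without adherent replicate 2 or 3 (adjusted p = 0.052 and 0.0635).

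Values on every array are also given for 10 members chosen after their values were seen, namely TOPBP1, FANCG, RMI1, EXO1, MSH6, XRCC3, RAD51C, RAD50, NBN and BRCA1. RMI1 read 10.44, 10.16 and 10.15 in xenografts, 9.29, 9.18 and 9.35 in spheres and 10.16, 10.26 and 10.20 in adherent cells. Xenograft and adherent arrays overlapped while spheres stood apart. RMI1 was at 0.522 times the adherent level in spheres (adjusted p = 3.87e-05), 1.97-fold higher in xenografts than in spheres (adjusted p = 2.16e-05), and differed by 0.04 between xenografts and adherent cells (95% interval -0.19 to 0.27).

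End processing was represented by EXO1 and the MRN complex. EXO1, the exonuclease of long resection, read 7.72, 7.58 and 7.66 in xenografts, 6.73 to 7.01 in spheres and 7.75, 7.98 and 7.89 in adherent cells. It was at 0.508 times the adherent level in spheres (log2 change -0.98, SE 0.11, adjusted p = 3.45e-05). The subunits of the MRN complex, which senses ends and starts their cutting, were not called in spheres at the brightest probe set, with -0.17 for the nuclease MRE11, 0.05 for NBN and 0.39 for the ATPase RAD50. A dim probe set of MRE11, 242456_at, fell by 0.52 in spheres and by 0.51 in xenografts (adjusted p = 0.0182 and 0.0251), and 1 of RAD50 given next also fell in spheres. The difference between EXO1 and the MRN genes was not tested.

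RAD50 at 208393_s_at read 8.25, 7.73 and 8.19 in xenografts, 7.72 to 8.0 in spheres and 7.36, 7.55 and 7.48 in adherent cells. Here the adherent arrays were lowest, and xenografts and spheres overlapped. RAD50 rose 1.51-fold in xenografts (log2 change 0.59, SE 0.14, adjusted p = 0.00947), and its value in spheres missed the threshold (adjusted p = 0.06), passing it without xenograft replicate 1 or 2 (adjusted p = 0.0429 and 0.016). A second probe set also rose in xenografts (0.55, adjusted p = 0.00261). The third, 238656_at, fell by 0.75 in spheres (adjusted p = 0.00252), with 5.34, 4.72 and 4.95 in spheres and 5.64, 5.92 and 5.71 in adherent cells.

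NBN, the signaling subunit of MRN, read 8.65, 8.70 and 8.53 in xenografts, 8.59, 8.60 and 8.61 in spheres and 8.44, 8.61 and 8.59 in adherent cells at its brightest probe set, all overlapping. Its probe set 202906_s_at read 7.06, 7.03 and 6.78 in xenografts, 7.50, 7.69 and 7.58 in spheres and 6.86, 6.98 and 6.96 in adherent cells. There it was 1.58-fold higher in spheres (adjusted p = 0.000467). A further one, 202905_x_at, was at 0.653 times the adherent level in xenografts (adjusted p = 0.01).

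**Figure D3:**
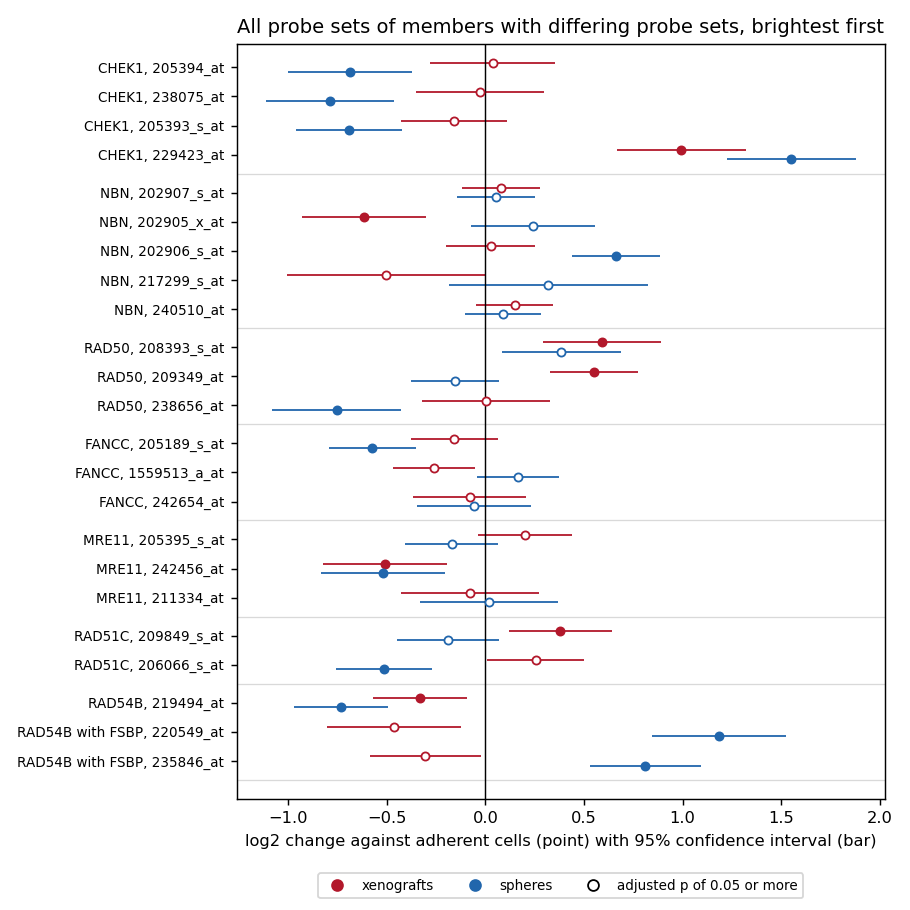
Log2 change against adherent cells with 95% confidence intervals for every probe set of 7 members whose probe sets differ, in xenografts (red) and spheres (blue), with the brightest probe set of each gene first and filled points past an adjusted p of 0.05. CHEK1 fell at 3 probe sets in spheres and rose 2.93-fold at the fourth, and the probe sets that RAD54B shares with FSBP rose in spheres while its own fell.

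Among 18 members with more than 1 probe set, all probe sets fell in spheres for 4, BARD1, FANCI, BRIP1 and CLSPN. CHEK1 was the 1 member called in both directions, and 6 members had no probe set called. Between xenografts and spheres 2 members were called in both directions, and between xenografts and adherent cells 0 were.

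The BRCA1 complex loads the recombinase. BRCA1, its ubiquitin ligase subunit, read 8.50, 8.61 and 8.54 in xenografts, 8.55, 8.46 and 8.55 in spheres and 8.49, 8.54 and 8.35 in adherent cells. All states overlapped, and the change in spheres was 0.06 (95% interval -0.14 to 0.26). Its partner BARD1 fell by 0.74 in spheres (adjusted p = 0.000203) and by 0.40 in xenografts (adjusted p = 0.0155), the second call being lost without adherent replicate 2 (adjusted p = 0.0598). PALB2, which links BRCA1 to the recombinase loader, fell by 0.55 in spheres (adjusted p = 0.00398).

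The 5 paralogs of the recombinase form complexes that stabilise its filament. XRCC3 read 5.66, 5.51 and 5.89 in xenografts, 4.82, 4.67 and 4.84 in spheres and 5.77, 5.57 and 5.75 in adherent cells. Spheres alone stood apart, and XRCC3 was at 0.529 times the adherent level there (log2 change -0.92, SE 0.11, adjusted p = 9.04e-05), the 1 paralog called there at its brightest probe set. XRCC3 has 1 probe set, and it was dim in spheres, close to the array medians of 4.78 to 4.87. Its xenograft level differed from the adherent one by -0.01 (95% interval -0.26 to 0.24).

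RAD51C, the partner of XRCC3, read 9.42, 9.79 and 9.84 in xenografts, 9.25, 9.06 and 9.04 in spheres and 9.32, 9.27 and 9.32 in adherent cells. Xenografts were highest without overlap. It rose 1.30-fold in xenografts against adherent cells (log2 change 0.38, SE 0.12, adjusted p = 0.0381), a call that held in 2 of the 9 fits with 1 array left out, and was 1.49-fold higher in xenografts than in spheres (adjusted p = 0.00267). At its second probe set it fell by 0.52 in spheres (adjusted p = 0.00436).

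XRCC2 fell by 0.40 in xenografts (adjusted p = 0.0249) at a single probe set that may cross-hybridise by its name, and that call was lost without adherent replicate 1, 2 or 3 or xenograft replicate 1 or 3 (adjusted p = 0.0611 to 0.0717). RAD51D and RAD51B were called in none of the comparisons at their brightest probe sets, with changes in spheres of 0.02 and -0.10. A dimmer probe set of each, 37793_r_at for RAD51D and 210255_at for RAD51B, was higher in xenografts than in spheres (0.33 and 0.36, adjusted p = 0.0193 and 0.0159). The brightest RAD51B probe set was dim (4.78 to 4.88). Both RAD54 translocases, which drive strand exchange, fell in spheres, RAD54L by 0.53 (adjusted p = 0.00273) and RAD54B by 0.73 (adjusted p = 0.000352). In xenografts RAD54B fell by 0.33 (adjusted p = 0.0484), a call that held in 1 of the 9 fits with 1 array left out.

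RAD54B overlaps FSBP in the annotation, and 2 further probe sets assigned to both genes were kept out of the counts. They moved the other way in spheres. The first, 220549_at, read 4.90, 5.22 and 4.77 in xenografts, 6.28, 6.78 and 6.77 in spheres and 5.26, 5.50 and 5.50 in adherent cells, and was 2.28-fold higher in spheres (adjusted p = 0.000138). The second was 1.75-fold higher in spheres (adjusted p = 0.000536). Which of the transcripts these probe sets saw cannot be told apart here.

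MSH6, the mismatch recognition protein, was the 1 member from mismatch repair. It read 10.35, 10.09 and 10.18 in xenografts, 9.50, 9.63 and 9.65 in spheres and 10.40, 10.52 and 10.53 in adherent cells. The sphere arrays were lowest without overlap. MSH6 was at 0.540 times the adherent level in spheres (log2 change -0.89, SE 0.10, adjusted p = 3.87e-05), and a second probe set fell by 1.16 (adjusted p = 1.88e-05).

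**Figure D4:**
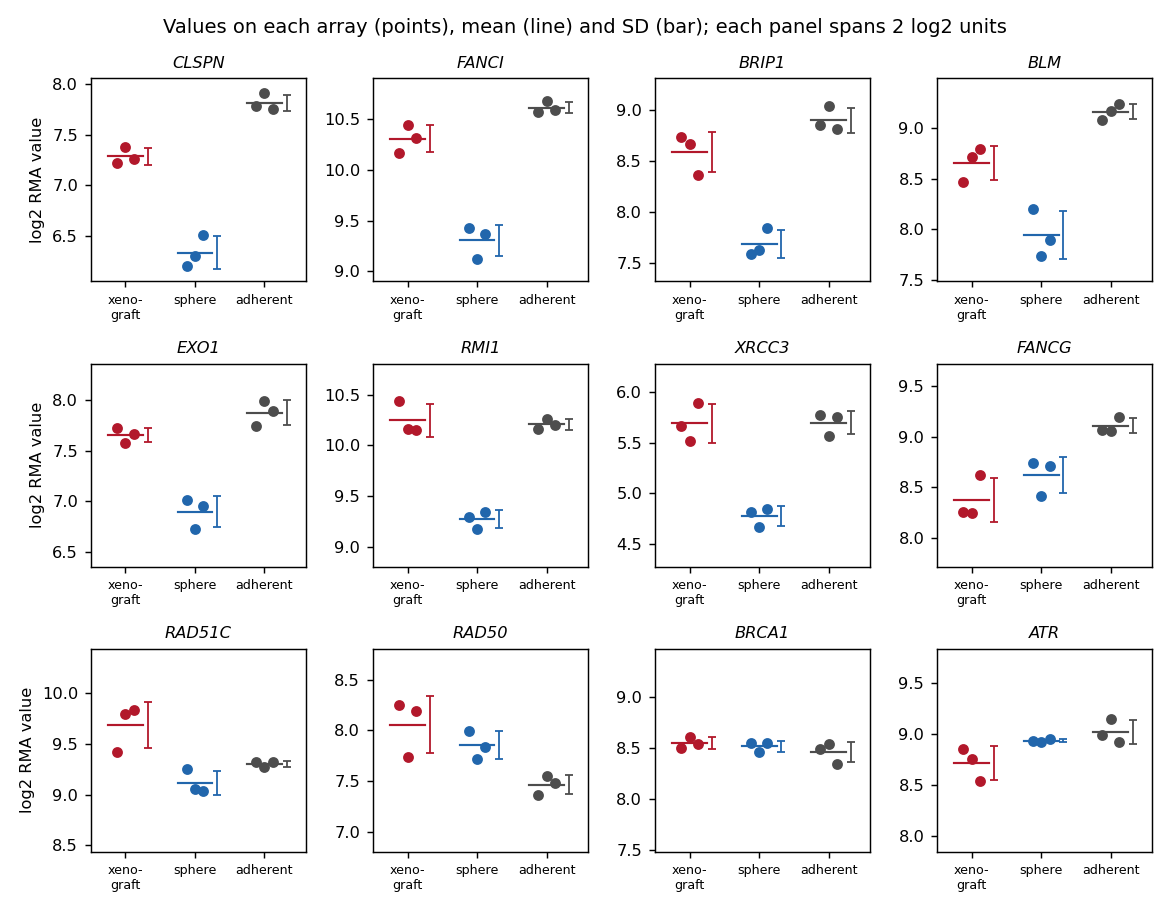
Log2 RMA values of 12 members on each array (points) with mean (line) and SD (bar) for xenografts, spheres and adherent cells, n = 3 arrays each, every panel spanning 2 log2 units. Spheres are lowest for CLSPN, FANCI, BRIP1, BLM, EXO1, RMI1 and XRCC3, while adherent cells are lowest for RAD50 and all states overlap for BRCA1.

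The counts of other genes of the same processes in spheres stand beside 16.3% of all genes lower and 13.5% higher. Of 40 further recombination genes 11 fell and 7 rose, with a median of -0.16, the number higher being near the share over all genes. H2AX, the histone marked at breaks, fell to 0.375 times the adherent level (adjusted p = 5.86e-06) and the helicase and nuclease DNA2 to 0.418 times, while RAD52, a strand annealing protein, rose 2.12-fold (adjusted p = 0.000897). Of 19 further crosslink repair genes 10 fell and 1 rose, with a median of -0.32, among them UHRF1 at 0.316 times and UBE2T, the ubiquitin conjugating enzyme of the pathway, at 0.601 times.

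Of 16 further checkpoint genes 7 fell and 2 rose in spheres, the 2 again near the share over all genes. CDC25A, the phosphatase that CHEK1 targets, was at 0.483 times the adherent level, and CDKN1A, the cyclin kinase inhibitor p21, rose 1.57-fold. In xenografts CDKN1A fell to 0.245 times the adherent level (adjusted p = 8.88e-07). Of 10 end joining genes 2 fell and 1 rose in spheres, both near the shares over all genes, and of 29 excision repair genes 10 fell and 3 rose, the 3 being near the share of all genes higher. Of 3 further mismatch repair genes 0 were lower and 1 was higher.

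Lists of cell cycle phase moved beside these genes. Over all genes 16.3% were lower and 13.5% higher in spheres than in adherent cells, and 25.7% were higher in xenografts than in spheres. Of 34 S phase genes 33 fell in spheres, with a median of -1.14, and 32 were higher in xenografts than in spheres. Of 28 G2/M genes 22 fell in spheres, with a median of -0.68, and 18 were higher in xenografts than in spheres. Against adherent cells, 7 S phase genes fell in xenografts (median -0.15) and 8 G2/M genes fell while 1 rose (median -0.24). The shares over all genes there were 14.3% lower and 12.6% higher. Of 20 genes of the E2F and DREAM regulators 13 fell and 2 rose in spheres, with changes between -1.68 and 0.74 and a median of -0.59. The 2 that rose were not above the share of all genes higher. The part of cell cycle phase in the changes of the repair genes was not tested.

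**Figure D5:**
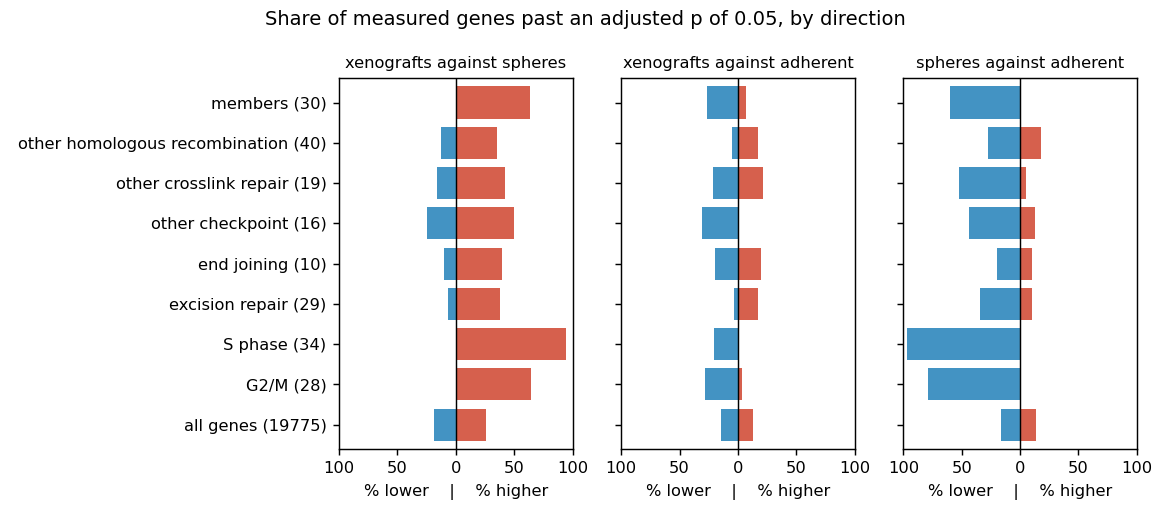
Share of measured genes in each list past an adjusted p of 0.05, in percent, higher to the right (red) and lower to the left (blue), for the 3 comparisons, with the number of genes in brackets. Of the 30 members 18 were lower in spheres than in adherent cells, between the shares of the other repair lists and those of 33 of 34 S phase and 22 of 28 G2/M genes.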

How the data were processed

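RNA of Rh30 adherent cells, spheres and xenografts was measured on 9 arrays. The authors normalized the CEL files by RMA and deposited log2 values per probe set; the version of the software is not given in the sources used here. After 62 control probe sets were set aside, 54613 entered lmFit and eBayes of limma 3.58.1 (R 4.3.3) with 1 mean per growth state and 6 residual degrees of freedom. Each comparison was adjusted by Benjamini-Hochberg over every probe set tested, with a threshold of 0.05. Symbols came from the array annotation: 41091 probe sets had 1 symbol, 1801 several and 11721 none. The test was tried on simulated data with known changes. The members and lists were chosen with earlier results of these data known. Values on every array were given for members called with a change of at least 2-fold or called in opposite directions at different probe sets, and for members chosen after their values were seen. Alternatives were other normalization, centring, filters, variance models, array weights, a replicate block, the methods' t-test, other probe set rules and leaving out each array. Promoters came from RefSeq windows.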

Additional observations from a re-analysis of the deposited data

How the results depend on the processing

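The count of members lower in spheres than in adherent cells was 15 to 21 over the alternatives and 16 to 18 with 1 array left out, and the count higher was 0 or 1. The 1 was RAD50, called with quantile normalization, without dim probe sets, with only the 2 groups compared, with a variance trend, with array weights and by the unadjusted t-test. The 15 lower were by the adjusted t-test, with 3091 of all 19775 genes lower, and the 21 by the unadjusted one, with 4422. Over all genes, leaving out 1 array gave 2572 to 3550 lower and 2104 to 2987 higher in spheres. With 1 array left out, the median in spheres was -0.58 to -0.46. For xenografts against adherent cells, leaving out 1 array gave 1 to 3 higher, 2 to 8 lower and a median of -0.22 to -0.13, and for xenografts against spheres 13 to 19 higher, 0 to 1 lower and a median of 0.34 to 0.45. Of all 19775 genes, 1363 to 2871 were then higher and 2060 to 3016 lower than in adherent cells. Against spheres 3517 to 5188 were higher and 3048 to 3719 lower. Quantile normalization gave 4 higher, 3 lower and a median of -0.062 in xenografts against adherent cells, and a median of 0.53 against spheres. Of all genes, 3015 were higher and 2111 lower with it in xenografts against adherent cells. Centring on array medians gave 1 higher and a median of -0.23 in xenografts against adherent cells, fits of 2 groups gave 1 higher, and array weights a median of 0.32 against spheres. Of all genes, 1836 were higher than in adherent cells with the centring and 1930 in the fits of 2 groups. The adjusted t-test gave 0 higher and 1 lower in xenografts against adherent cells and 7 higher against spheres. Of all genes it gave 841 higher and 1398 lower against adherent cells and 2380 higher against spheres. Without probe sets ending in _x_at or _s_at, 26 members were left, with 1 higher and a median of -0.24 in xenografts against adherent cells and 2 lower against spheres. Of the 17098 genes left, 1939 were higher than in adherent cells and 2992 lower than in spheres. The mean of all probe sets gave a median of -0.42 in spheres, and 1 lower and a median of 0.35 in xenografts against spheres. By this mean 3878 of all genes were lower in xenografts than in spheres. The direction turned for FANCC in spheres (0.17), MRE11 in xenografts against adherent cells (-0.51) and FANCC in xenografts against spheres (-0.43) without those probe sets, and for FANCC (-0.0104) and NBN (-0.45) in xenografts against spheres with the mean. The alternatives read other probe sets there. Whether replicate numbers pair the arrays cannot be told from 3 arrays per group. By deviations from the group means, 2 of 9 arrays were closest to the same number in another group. Same-number correlations were -0.18 to 0.18. The replicate block gave 18 lower in spheres, 7 lower and 2 higher in xenografts against adherent cells and 18 higher against spheres. Of all 19775 genes it gave 3055 lower, 2588 lower and 2154 higher, and 4737 higher in the same order.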
